A study of Mus musculus with 2 samples.

Results

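The non-cycling surface mesothelial cells of the newborn mouse ovary were 234 of 8202 cells kept from single-cell RNA sequencing of whole ovaries, 99 in replicate 1 and 135 in replicate 2. They made up 2.65% of the kept cells of replicate 1 (95% exact binomial interval 2.16 to 3.22) and 3.02% of those of replicate 2 (2.54 to 3.57). They were chosen by their own transcripts, counted as unique molecular identifiers (UMIs), of which each marks 1 captured RNA molecule. A cell had to hold at least 2 UMIs of Upk3b and at least 1 UMI of 3 or more of Upk1b, Lrrn4, Krt19, Krt7, Msln, Muc16 and Lgals7. Col1a2 and Dcn together had to stay under 0.2% of its UMIs and the germ cell genes Ddx4, Dazl and Ooep under 0.05%. Cells with 3 or more of the cycle genes Mki67, Top2a, Pclaf, Tk1, Rrm2 and Pbk were set aside as cycling mesothelial cells, 65 and 105 in the libraries.

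The study asked in which ovarian cells the genes of long-lived proteins are expressed. CD1 ovaries were taken on postnatal day 2, and each library pooled 6 ovaries from 3 pups of the same mother. Both libraries belong to the same group, so cell groups were compared within them, and the replicates are the libraries (n = 2), not the cells. The labels name version 2 of the Chromium 3′ chemistry, whereas the methods name version 3.

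The surface of the ovary is covered by a single layer of flat to cuboidal mesothelium, often called ovarian surface epithelium, that is continuous with the lining of the abdominal cavity. It descends from the coelomic epithelium, the layer that also gives rise to supporting cells of the early gonad, and it carries keratins together with mesenchymal proteins such as vimentin. In adults it opens and heals at each ovulation, and Lgr5, a receptor that lets R-spondins strengthen WNT signalling, marks part of it.

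UMIs were summed over the cells of a group in each library and are given per 1000000 UMIs of the scaled library (CPM), the value of replicate 1 first. The gated cells carried the labelled markers in both libraries, which the gate fixed for all but Lgr5. Upk3b, a membrane protein of the uroplakin family, stood at 612 and 595 CPM and was at 0 in the granulosa and interstitial cells, where the gate required that. Krt19, a simple-epithelial keratin, stood at 945 and 648 CPM, against 3.26 and 5.02 in granulosa and 0.83 and 1.13 CPM in interstitial cells. Its partner Krt7 stood at 274 and 251 CPM in the mesothelial cells. Upk1b (33.4 and 30.6 CPM) and Lrrn4 (19.6 and 30.6 CPM) were below 0.2 CPM in every library of both other groups. Of the mesothelial cells, 97.0% and 98.5% held a UMI of Krt19 and 92.9% and 89.6% one of Krt7. Most cells held none of Upk1b, found in 27 of 99 and 36 of 135 cells, or of Lrrn4, found in 23 and 36.

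Lgr5 was not part of the gate but was given with the label as a marker, so its levels are a description. It stood at 217 and 154 CPM in the non-cycling mesothelial cells, 7.3 and 16.5 CPM in granulosa cells and 0.166 and 0.283 CPM in interstitial cells. A UMI of Lgr5 was found in 86.9% and 65.9% of the mesothelial cells, in 6.24% and 14.2% of granulosa cells and in 0.104% and 0.158% of interstitial cells, at median depths of 11458 and 10134, 9471 and 8914, and 5943 and 4596 UMIs per cell. With every cell thinned to 2000 UMIs, the mesothelial shares were 31.3% and 21.5%. These are not to be set against the unthinned shares of the other groups. The mesothelial sums lay above all granulosa and interstitial sums in both libraries. The Lgr5 gene lies on chromosome 10, positions 115450311 to 115587780, on the minus strand of GRCm38.

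The granulosa cells used for comparison held at least 2 of Foxl2, Fst and Wnt6 and no Upk3b (1395 and 459 cells). The interstitial cells held both Col1a2 and Dcn, together at 0.2% of UMIs or more, fewer than 2 of the 3 granulosa genes and no Upk3b (961 and 1897 cells). Granulosa cells stayed under the same Col1a2 and Dcn limit as the mesothelial cells, and both groups under the same germ cell limit and below 3 of the 6 cycle genes. Granulosa cells surround the oocyte in the follicle, and interstitial cells form the stroma between follicles. The genes of these gates were not absent from the mesothelial cells. Wnt6 stood at 457 and 439 CPM in the mesothelial and at 392 and 392 CPM in the granulosa cells, and 93.9% and 94.8% of the mesothelial cells held it. Foxl2, a transcription factor that marks granulosa cells, stood at 33.4 and 37.4 CPM in the mesothelial, 331 and 353 CPM in granulosa and 101 and 152 CPM in interstitial cells. It was found in 18.2% and 19.3% of mesothelial, 88.6% and 92.2% of granulosa and 40.9% and 46.7% of interstitial cells. Its mesothelial UMIs, 46 in 18 cells and 66 in 26 cells, reached 9 and 10 in a cell, and their source was not tested. Fst, which encodes follistatin, stood at 56.6 and 51.6 CPM in the mesothelial and was found in 33.3% and 30.4% of these cells, against 92.6% and 70.4% of granulosa cells and 1.35% and 0.58% of interstitial cells, whose gate allowed only 1 of the 3 granulosa genes. Dcn, the matrix proteoglycan decorin and a gene of the interstitial gate, was found in 89.9% and 83.0% of mesothelial and 22.3% and 37.3% of granulosa cells, at 303 and 280 CPM in the former and 3553 and 3802 CPM in interstitial cells. Lgals7 was found in 86.4% and 94.8% of the granulosa cells as well.

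**Figure D1:**
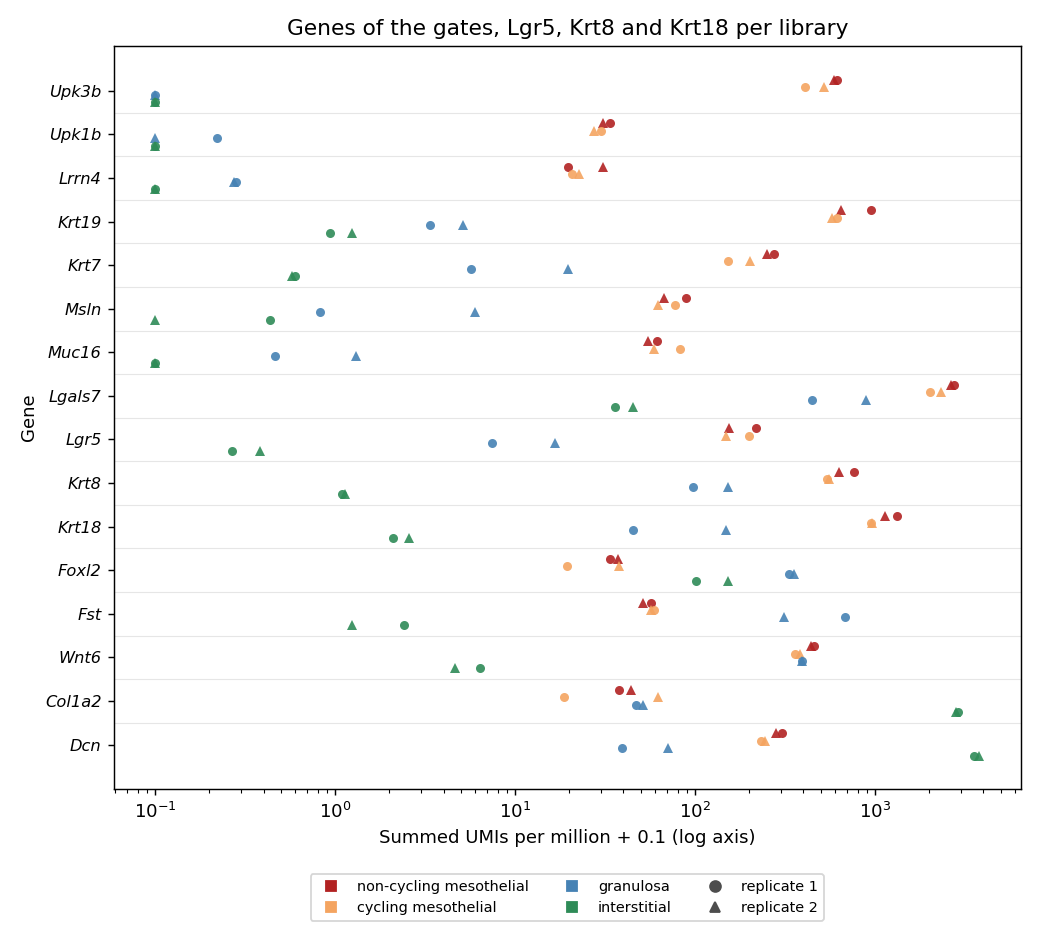
CPM plus 0.1 on a log axis for the genes of the gates, Lgr5, Krt8 and Krt18, with a point per library for 4 cell groups. Upk3b sits at 612 and 595 CPM in the non-cycling mesothelial cells and at 0 in granulosa and interstitial cells, and Wnt6 is at similar levels in mesothelial and granulosa cells.

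Some cells lay close to the limits. With 1 UMI of Upk3b, 11 and 7 cells met every other condition and stayed outside, and 9 and 17 cells with exactly 2 UMIs were inside. With 2 of the 7 further markers, 10 and 19 cells stayed outside, and with 3 of them 19 and 35 cells were inside. Of all mesothelial cells, 11 and 20 held 2 of the 6 cycle genes and counted as non-cycling, and 6 and 17 held 3 and counted as cycling. The share set aside as cycling was 39.6% of 164 (32.1 to 47.6) and 43.8% of 240 cells (37.4 to 50.3), and 13.4% and 11.7% when each cell was thinned to 2000 UMIs, so it depends on depth.

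The starts of 5 genes that mark or set apart the cells are shown, because the report turns on their expression: the gate gene Upk3b, Krt8 and Krt18, which encode a keratin pair that assembles into the same filaments, Dmkn, the gene with the largest rise over both other cell groups by the rule used, and Rspo1, the R-spondin of the WNT results. The sequences are those before the gene start of RefSeq on GRCm38.p6, read 5′ to 3′ on the strand of the gene, and end where the GRCm38 gene annotation begins. The windows are Upk3b at chr5:136038246-136038495 (plus strand), Krt8 at chr15:102004483-102004592 (minus), Krt18 at chr15:102027966-102028179 (plus), Dmkn at chr7:30763506-30763755 (plus) and Rspo1 at chr4:124986180-124986429 (plus). Capitals mark letters that match a searched motif, and lower case marks all others.
Upk3b: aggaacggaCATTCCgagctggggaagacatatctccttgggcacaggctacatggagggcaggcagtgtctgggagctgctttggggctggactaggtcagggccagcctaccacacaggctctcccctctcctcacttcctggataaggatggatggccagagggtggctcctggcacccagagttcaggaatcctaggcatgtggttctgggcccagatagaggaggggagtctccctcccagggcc
Krt8: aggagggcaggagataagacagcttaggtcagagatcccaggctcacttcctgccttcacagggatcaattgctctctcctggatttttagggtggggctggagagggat
Krt18: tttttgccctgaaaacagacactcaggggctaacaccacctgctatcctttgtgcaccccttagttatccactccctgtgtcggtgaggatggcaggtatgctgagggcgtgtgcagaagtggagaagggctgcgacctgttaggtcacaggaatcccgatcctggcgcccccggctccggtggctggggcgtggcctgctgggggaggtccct
Dmkn: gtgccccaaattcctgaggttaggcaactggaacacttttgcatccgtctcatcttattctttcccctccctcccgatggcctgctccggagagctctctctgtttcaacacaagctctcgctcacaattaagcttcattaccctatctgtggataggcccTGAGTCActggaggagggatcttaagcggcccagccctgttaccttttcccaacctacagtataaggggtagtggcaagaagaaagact
Rspo1: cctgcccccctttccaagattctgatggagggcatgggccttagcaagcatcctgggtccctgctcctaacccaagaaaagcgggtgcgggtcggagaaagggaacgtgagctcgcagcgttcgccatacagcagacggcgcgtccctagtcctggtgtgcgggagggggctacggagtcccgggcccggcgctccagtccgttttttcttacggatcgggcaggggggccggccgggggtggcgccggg
The letters searched on both strands were TATAAA for the core element near some starts, GGGCGG for the GC box of Sp1 factors, CCAAT for NF-Y factors, TGANTCA for AP-1 factors and GGAATG for TEAD factors. Among the 5 windows, the TEAD letters occurred 1 time, in Upk3b, and the AP-1 letters 1 time, in Dmkn. Of 27025 promoters of 250 bases, 12.6% held the TEAD letters, 6.87% the AP-1 letters, 32.9% the GC box, 34.5% CCAAT and 13% TATAAA. Of the 24 genes described next, 20 had a promoter in the RefSeq table, and 12 of them held the GC box, 4 the AP-1, 2 the TEAD, 2 the CCAAT and 1 the TATAAA letters. GC made up 60.8% of the Upk3b window and 66.8% of the Rspo1 window, against a mean of 53% over all promoters. A match of letters is a description of the sequence and not a bound site.

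The keratin pair set the mesothelial cells apart from both other groups. Krt8 stood at 763 and 633 CPM in mesothelial, 97.3 and 153 CPM in granulosa and 0.996 and 1.04 CPM in interstitial cells. Krt18 stood at 1325 and 1139 CPM in mesothelial, 45.4 and 149 CPM in granulosa and 1.99 and 2.46 CPM in interstitial cells. In both genes the groups did not overlap in any library, and the order was mesothelial, granulosa, interstitial. The log2 fold change of Krt8 was 2.49 (SE 0.20, adjusted p = 3.27e-05) over granulosa and 9.38 (SE 0.31, adjusted p = 7.24e-08) over interstitial cells by edgeR. For Krt18 it was 3.68 (SE 0.43, adjusted p = 2.67e-04) and 9.07 (SE 0.60, adjusted p = 2.82e-06). The pair lies side by side on chromosome 15, Krt8 at 101996698 to 102004482 on the minus strand and Krt18 at 102028180 to 102032027 on the plus strand, with starts 23698 bases apart.

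Across the transcriptome the mesothelial cells differed in many genes from either group. A gene was called when its adjusted p was under 0.05 and its change over 2-fold, by edgeR's quasi-likelihood test on the summed UMIs with Benjamini-Hochberg adjustment over 12527 genes outside the gates. Over granulosa cells, 946 genes (7.55%) were called higher and 937 (7.48%) lower. Over interstitial cells, 1720 genes (13.7%) were called higher and 1381 (11.0%) lower. The median log2 fold change of all tested genes was -0.01 in each. Both comparisons use the same mesothelial sums, so their results are not independent. Genes that vary together with the gate genes from cell to cell were favoured by the choice of cells.

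The 24 genes with the largest rise over both other groups included genes of the cell membrane, secreted and binding proteins, and genes inside the cell. They were named by the smaller of their log2 fold changes, among genes over 2-fold in each library and with at least 20 UMIs in each mesothelial sum. The 24 were chosen without the cycling mesothelial cells, and the 2 genes called higher than in those, given below, are not among them. Dmkn, which encodes dermokine, a secreted protein of epithelia, stood at 81.3 and 38 CPM, against 0.0603 and 0.346 CPM in granulosa and 0 and 0.0945 CPM in interstitial cells. The few counts in the other groups put the ratio over granulosa cells at 425 (counting interval 143 to 2078) and over interstitial cells at 947 (168 to 37599). A UMI of Dmkn was found in 31.3% and 23.7% of the mesothelial cells, 0.0717% and 0.436% of granulosa cells and 0% and 0.0527% of interstitial cells.

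Among the membrane genes, Tm4sf5, a tetraspan membrane protein, stood at 136 and 132 CPM, against 0.483 and 1.39 CPM in granulosa and 0 and 0.283 CPM in interstitial cells. Its log2 fold change over granulosa cells was 7.46 (SE 0.35, adjusted p = 4.69e-06), and its ratio over interstitial cells was 739 (counting interval 251 to 3596). Gpm6a, a membrane glycoprotein first known from neurons, stood at 77 and 62.9 CPM, 1.03 and 1.21 CPM in granulosa cells and 0 in both interstitial sums, where it was at least 383-fold lower. Cldn15, a claudin that forms cation pores in tight junctions, stood at 30.5 and 43.1 CPM and below 0.7 CPM in all 4 other sums. The water channel Aqp2 stood at 16 and 23.8 CPM and below 0.7 CPM elsewhere. Clic3, a chloride channel protein, stood at 17.4 and 23.2 CPM and was at 0 in interstitial cells, at least 115-fold lower. Car9, a surface carbonic anhydrase, stood at 61 and 56.1 CPM, with log2 fold changes of 5.94 and 7.50. The adhesion receptors Adgrg2 (63.2 and 61.2 CPM) and Adgrf5 (30.5 and 27.8 CPM), Pkhd1l1 (45.8 and 34 CPM), a large membrane protein related to fibrocystin, and Tmem151a (147 and 171 CPM) completed this group. In each of these genes every mesothelial sum lay above every granulosa and interstitial sum, which the rule that named them largely fixed.

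Secreted and ligand-binding proteins formed the next group of the 24. Lgals2, a galectin that binds galactosides, stood at 509 and 414 CPM, against 3.44 and 10.6 CPM in granulosa and 0.498 and 0.283 CPM in interstitial cells, with log2 fold changes of 6.22 (SE 0.40) and 10.23 (SE 0.55). Pglyrp1, a protein that binds bacterial peptidoglycan, stood at 533 and 433 CPM, 6.58 and 27.4 CPM in granulosa and 2.16 and 2.08 CPM in interstitial cells (4.95, SE 0.51, and 7.82, SE 0.62). Fabp5, a carrier of fatty acids and retinoic acid, stood at 714 and 471 CPM, 16 and 12 CPM in granulosa and 34 and 12.6 CPM in interstitial cells (5.37, SE 0.43, and 4.71, SE 0.41). The mesothelial sums were higher than all other sums in these 3 genes, again largely by the rule that named them. Efemp1, the matrix protein fibulin-3, differed between the mesothelial libraries, at 18.9 and 66.9 CPM, and with DESeq2 its rise over granulosa cells was not called (adjusted p = 0.201). Rarres1 (17.4 and 19.3 CPM), a gene first described as induced by retinoids, and Fndc1 (25.4 and 32.9 CPM), which carries fibronectin type III domains, stood at low levels.

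Inside the cell, the LIM domain protein gene Crip1 stood at 775 and 942 CPM, against 9.23 and 27 CPM in granulosa and 16.8 and 11.9 CPM in interstitial cells. Its log2 fold changes were 5.65 (SE 0.46, adjusted p = 3.20e-05) and 5.92 (SE 0.46, adjusted p = 8.63e-06). Irf5, a transcription factor of interferon responses, stood at 74.1 and 72.6 CPM and at most at 2.42 CPM elsewhere. Tdh, which encodes threonine dehydrogenase, stood at 61 and 46.5 CPM, 0.181 and 1.21 CPM in granulosa and 0 and 0.189 CPM in interstitial cells. Unc45b, a myosin chaperone best known from muscle, stood at 73.4 and 80.5 CPM and at most at 1.04 CPM elsewhere. Fmnl1, an actin-assembling formin, Nxf3, a relative of the mRNA export factor, and Trnp1, a nuclear protein described in neural progenitors, ranged from 14.7 to 28.9 CPM in the mesothelial sums and stayed under 1 CPM in all others.

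**Figure D2:**
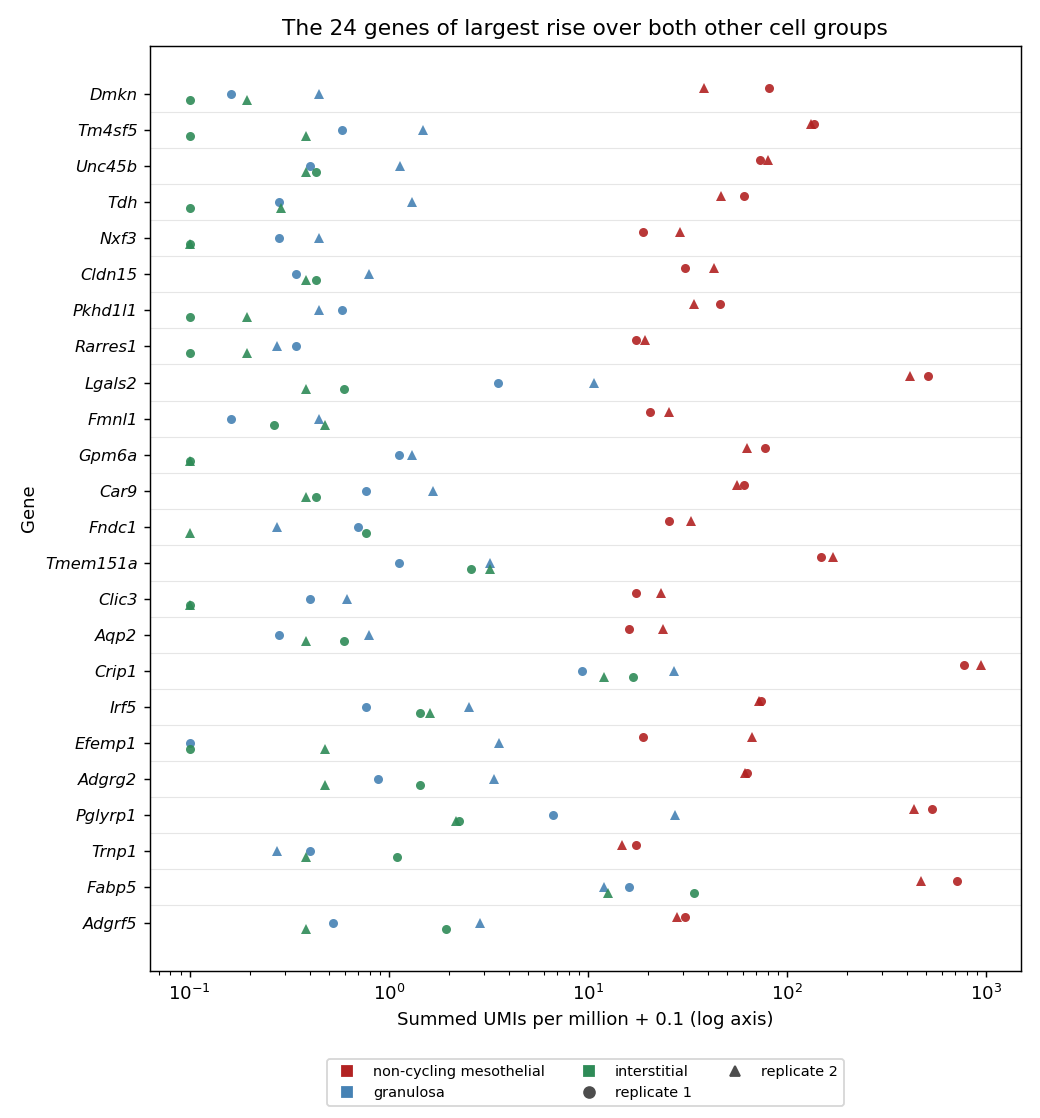
CPM plus 0.1 on a log axis for the 24 genes of largest rise over both other cell groups, with a point per library for mesothelial, granulosa and interstitial cells. The mesothelial points of each gene lie to the right of all others, from 14.7 CPM (Trnp1, replicate 2) to 942 CPM (Crip1, replicate 2). The rule that named the genes largely fixed this order.

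Gene lists of known functions were then counted, and called members beyond the 4 largest changes of a list, as well as members not called, are named here after their values were seen. The share of called members can be read against the shares over all genes given above. Of 21 tested genes of the mesothelial surface coat, 13 were higher and 2 lower than in granulosa cells (median log2 fold change 2.16), and 12 were higher and 2 lower than in interstitial cells (median 3.86). Podxl, the sialomucin podocalyxin, stood at 269 and 269 CPM, against 19.9 and 46.6 CPM in granulosa and 0.664 and 1.23 CPM in interstitial cells. Bcam, a laminin-binding adhesion protein, stood at 274 and 242 CPM, 48.8 and 47.6 CPM and 5.31 and 4.91 CPM. The mesothelial sums were highest in both genes. Aqp5, a water channel whose gene lies beside Aqp2 on chromosome 15, stood at 83.5 and 83.9 CPM, 18 and 23.6 CPM in granulosa cells and 0.166 and 0 CPM in interstitial cells (ratio 1391, counting interval 247 to 55147). Sdc1, a syndecan, fell against granulosa cells (-1.74), where it stood at 291 and 144 CPM.

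Of 37 tested keratins and junction genes, 16 were higher and 2 lower than in granulosa cells (median 1.01), and 31 were higher and 1 lower than in interstitial cells (median 5.69). Lsr, a protein of tricellular junctions, stood at 381 and 256 CPM, 60.8 and 64.1 CPM in granulosa and 1.16 and 0.945 CPM in interstitial cells (2.35, SE 0.19, and 8.24, SE 0.29). Its relative Ildr2 stood at 148 and 173 CPM, 17.4 and 29.4 CPM and 0.332 and 0.472 CPM. Epcam, an epithelial adhesion molecule, stood at 231 and 219 CPM, 9.54 and 32.2 CPM and 1.83 and 3.4 CPM. These genes separated the mesothelial sums from all others, whereas the tight junction gene Cgn stood at 123 and 93 CPM in mesothelial and 96.8 and 121 CPM in granulosa cells. Krt14 and Krt17, keratins of stratified epithelia, rose over both groups from low levels, at 5.08 and 8.51 CPM and at 10.2 and 18.7 CPM. Cldn1 was at 0 in both mesothelial sums and stood at 6.03 and 3.46 CPM in granulosa and 18.1 and 8.31 CPM in interstitial cells.

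**Figure D3:**
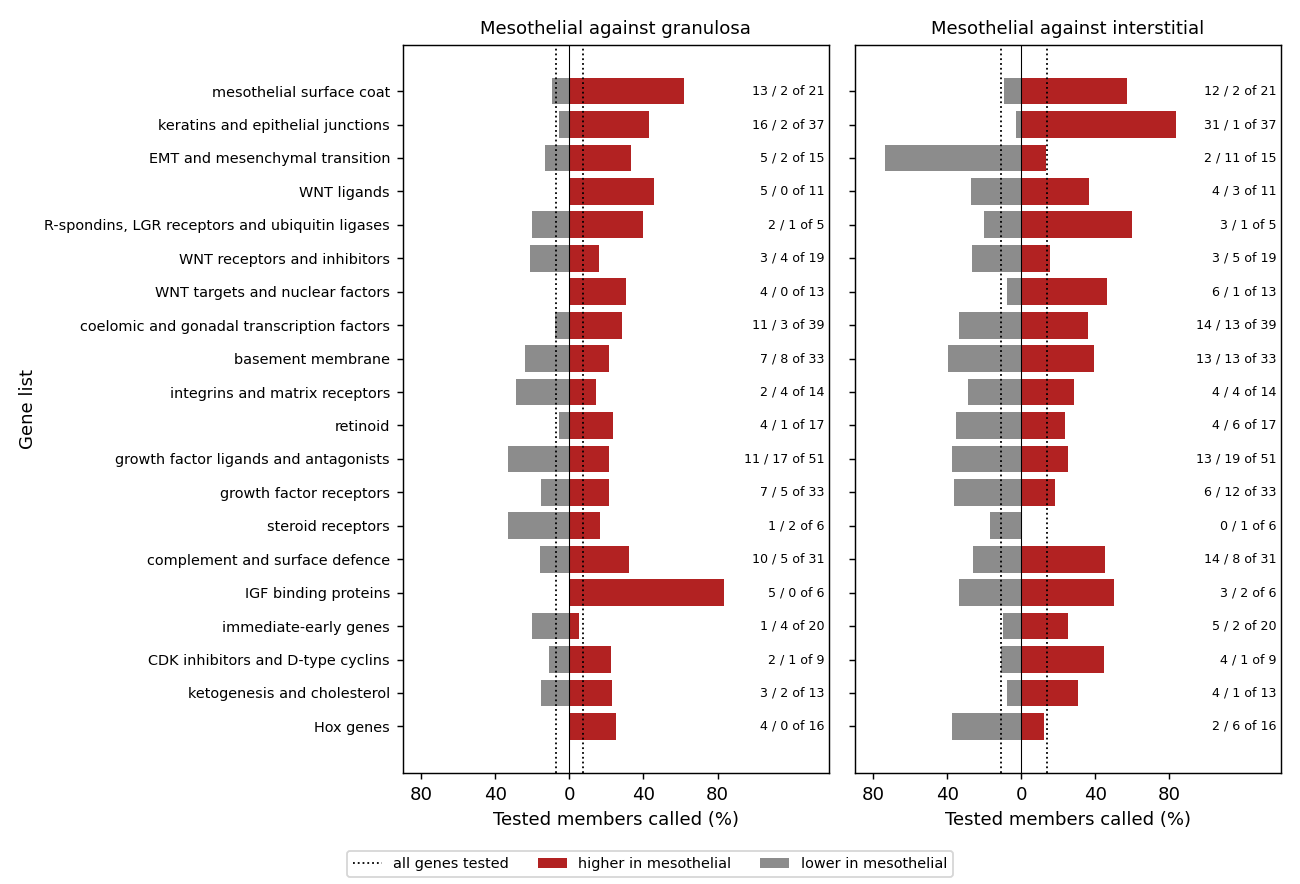
Share of the tested members of 20 gene lists called higher (red, to the right) or lower (grey, to the left) in non-cycling mesothelial cells, in percent, against granulosa and interstitial cells, with counts as higher / lower of tested and dotted lines at the share of all genes. Keratins and epithelial junctions reach 31 of 37 higher against interstitial cells, and 11 of 15 genes of mesenchymal transition were lower there.

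Of 15 tested genes of the mesenchymal transition, 5 were higher and 2 lower than in granulosa cells (median 0.16), and 2 were higher and 11 lower than in interstitial cells (median -2.67). Vim, which encodes vimentin, stood at 742 and 654 CPM in mesothelial, 503 and 499.9 CPM in granulosa and 1036 and 895 CPM in interstitial cells and was called in neither comparison. The transcription factor Twist2 stood at 0.726 and 0 CPM against 72.4 and 55.8 CPM in interstitial cells, and Prrx1 at 0.726 and 0.567 CPM against 61.4 and 74.3 CPM. Both were near 0 in the mesothelial sums. Cdh11, a mesenchymal cadherin, rose over granulosa cells (31.2 and 51.6 against 3.86 and 5.2 CPM) and fell against interstitial cells (281 and 235 CPM). The neural cadherin gene Cdh2 showed the opposite order, at 20.3 and 18.7 CPM in mesothelial, 85.4 and 81.8 CPM in granulosa and 1.99 and 3.68 CPM in interstitial cells.

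WNT proteins bind Frizzled receptors and stabilize β-catenin, and R-spondins strengthen this signal by binding LGR receptors and withdrawing the ubiquitin ligases Rnf43 and Znrf3 from the cell surface. The mesothelial cells carried a ligand and a receptor of the R-spondin system. Rspo1 stood at 442 and 557 CPM, against 122 and 244 CPM in granulosa and 11.1 and 15.9 CPM in interstitial cells. The groups did not overlap, and the log2 fold changes were 1.46 (SE 0.29, adjusted p = 0.00594) and 5.19 (SE 0.35, adjusted p = 3.49e-06). Lgr4, a receptor related to Lgr5, fell against both groups, at 24 and 37.4 CPM in mesothelial, 55.3 and 71.2 CPM in granulosa and 60.6 and 74 CPM in interstitial cells (-1.01 and -1.11), changes close to the 2-fold limit. In a test against a 2-fold change itself, Rspo1 over granulosa cells (adjusted p = 0.207) and Lgr4 in both comparisons were not called. Rnf43 was called over interstitial cells (11.6 and 14.7 against 0 and 0.189 CPM).

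Among 11 tested WNT ligand genes, from which the gate gene Wnt6 is left out, 5 were higher and 0 lower than in granulosa cells (median 1.72; 1 lower at an unadjusted p under 0.05 in edgeR and 0 called lower by DESeq2), and 4 were higher and 3 lower than in interstitial cells (median 0.36). Wnt9a stood at 29.1 and 36.9 CPM, 2.17 and 3.64 CPM in granulosa and 5.98 and 4.06 CPM in interstitial cells, and rose over both (3.61, SE 0.34, and 2.76, SE 0.32). Wnt10b stood at 8.72 and 6.24 CPM and was at 0 in interstitial cells, at least 40.5-fold lower. Wnt4, a ligand of ovarian differentiation, was called against interstitial cells, at 40.7 and 39.1 CPM against 143 and 236 CPM. It did not pass the test against granulosa cells, at 51.2 and 46.4 CPM. Wnt5b fell against interstitial cells in the same way (10.2 and 10.2 against 53.3 and 53.9 CPM), and Wnt5a, called higher than in granulosa and lower than in interstitial cells, stood apart in the mesothelial libraries at 5.81 and 24.4 CPM.

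Of 13 tested WNT target and nuclear genes, 4 were higher and 0 lower than in granulosa cells (median 0.82; 1 lower at an unadjusted p under 0.05 in edgeR and 0 called lower by DESeq2), and 6 were higher and 1 lower than in interstitial cells (median 0.30). Sp5, a direct WNT target, stood at 69.7 and 74.8 CPM, 9.11 and 13.3 CPM in granulosa and 0.332 and 0.661 CPM in interstitial cells (2.73, SE 0.22, and 7.01, SE 0.33). Tnfrsf19 stood at 178 and 205 CPM, 34.7 and 59.4 CPM and 37.8 and 44.7 CPM, and Lef1, a transcription factor that acts with β-catenin, at 32 and 28.9 CPM, 9.23 and 19.7 CPM and 2.99 and 3.31 CPM. Both rose over both groups without overlap, but Lef1 was not called over granulosa cells with DESeq2 (adjusted p = 0.0532). Axin2, a feedback inhibitor, was called over interstitial cells (58.8 and 71.4 against 9.63 and 11.9 CPM) and had a log2 fold change of 0.99 over granulosa cells, under the 2-fold limit. Among 19 tested receptors and inhibitors, 3 were higher and 4 lower than in granulosa cells, and 3 were higher and 5 lower than in interstitial cells. Sfrp1, a secreted WNT inhibitor, stood at 10.2 and 6.24 CPM in mesothelial and 769.5 and 515 CPM in interstitial cells, and Dkk3 at 5.08 and 5.1 CPM against 71.2 and 65.1 CPM.

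**Figure D4:**
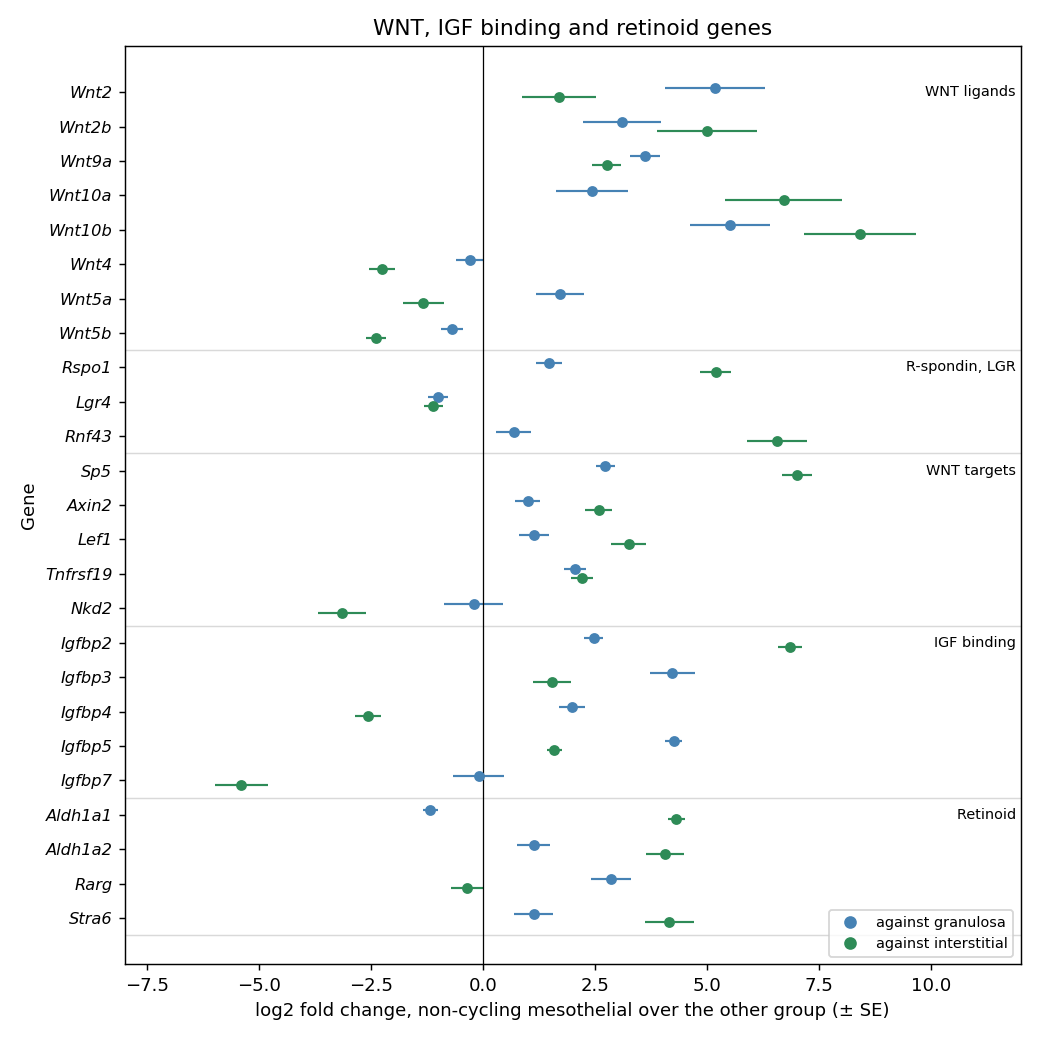
Log2 fold change with its SE of WNT, R-spondin, IGF binding and retinoid genes in non-cycling mesothelial cells over granulosa (blue) and interstitial (green) cells. Wnt9a, Rspo1, Sp5, Igfbp2 and Igfbp5 lie to the right of 0 in both comparisons, and Igfbp4 lies at 1.98 over granulosa and -2.57 over interstitial cells.

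The transcription factors of the coelomic epithelium and early gonad were divided. Of 39 tested, 11 were higher and 3 lower than in granulosa cells (median 0.60), and 14 were higher and 13 lower than in interstitial cells (median 0.33). Bnc1, basonuclin 1, stood at 39.9 and 48.8 CPM, 1.99 and 2.77 CPM in granulosa and 0.332 and 0.472 CPM in interstitial cells (4.29, SE 0.25, and 6.66, SE 0.32). Sox6 stood at 18.2 and 20.4 CPM, at most 2.25 CPM in granulosa and below 0.2 CPM in interstitial cells. Klf5 rose over both groups as well (29.8 and 35.2, 2.84 and 1.73, and 5.98 and 12.2 CPM). Gata3, named for its rise over interstitial cells, stood at 65.4 and 65.2 CPM, 3.44 and 15.2 CPM in granulosa cells and 0 in both interstitial sums, at least 361-fold lower.

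Several factors known from both mesothelial and granulosa cells were not called between them. Wt1 stood at 759.7 and 679.9 CPM in mesothelial, 474 and 551 CPM in granulosa and 251 and 360.4 CPM in interstitial cells, and was called over interstitial cells alone (1.23). Its log2 fold change over granulosa cells was 0.49 (adjusted p = 0.0646). Irx3 stood at 269 and 237 CPM, 146 and 229 CPM and 1.66 and 0.567 CPM, and Irx5 at 142 and 142 CPM, 66.1 and 112 CPM and 0.332 and 0.472 CPM. Both were called over interstitial cells (7.98 and 8.33) and not over granulosa cells (0.44 and 0.68). Stromal factors stood lower than in interstitial cells: Tcf21 at 9.44 and 10.8 against 577 and 444 CPM and Nr2f2 at 27.6 and 54.4 against 344 and 438 CPM.

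Of 16 tested Hox genes, 4 were higher and 0 lower than in granulosa cells (0 lower also at an unadjusted p under 0.05 in edgeR and by DESeq2), and 2 were higher and 6 lower than in interstitial cells. Hoxc5 rose over both, at 39.2 and 44.8 CPM, 6.03 and 13 CPM in granulosa and 9.13 and 10.7 CPM in interstitial cells. Hoxa3 was at 0 in both mesothelial sums and stood at 6.64 and 12 CPM in interstitial cells, at least 10.5-fold higher there.

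Retinoic acid is made from vitamin A by aldehyde dehydrogenases. Aldh1a2 stood at 306 and 263 CPM, 69.9 and 192 CPM in granulosa and 14.3 and 19.4 CPM in interstitial cells. It was called over interstitial cells (4.06, SE 0.43, adjusted p = 5.44e-05) and not over granulosa cells (1.13, SE 0.37, adjusted p = 0.0562), although the sums did not overlap. Aldh1a1 lay between the groups, at 278 and 237 CPM, 572 and 594 CPM in granulosa and 11.8 and 13.9 CPM in interstitial cells, and was called lower in the former (-1.18) and higher in the latter comparison (4.31). Stra6, which takes up vitamin A bound to its carrier, was called over interstitial cells (43.6 and 91.9 against 3.32 and 4.16 CPM). Of the 17 tested retinoid genes, 4 were higher (7 with DESeq2) and 1 lower than in granulosa cells, and 4 were higher and 6 lower than in interstitial cells.

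Insulin-like growth factor binding proteins hold IGFs outside the cell, and 5 of 6 tested were higher than in granulosa cells (median 2.22). Igfbp5 stood at 1245 and 1203 CPM, 51.3 and 77.4 CPM in granulosa and 432 and 380.3 CPM in interstitial cells (4.26, SE 0.19, adjusted p = 4.69e-06, and 1.59, SE 0.17, adjusted p = 7.05e-05). Igfbp2 stood at 1572 and 1236 CPM, 203 and 305 CPM and 14.1 and 10.6 CPM (2.47, SE 0.21, and 6.85, SE 0.26). Igfbp3 stood at 212 and 275 CPM, 5.67 and 23.2 CPM and 83.7 and 84.3 CPM. These 3 rose over both groups without overlap, but Igfbp3 was not called over interstitial cells with DESeq2 (adjusted p = 0.0874). Against interstitial cells, 2 members fell, Igfbp4 (265 and 355 against 1862 and 1838 CPM) and Igfbp7 (23.2 and 40.8 against 1325 and 1421 CPM).

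Of 51 tested growth factor ligands and antagonists, 11 were higher and 17 lower than in granulosa cells (median -0.92), and 13 were higher and 19 lower than in interstitial cells (median -0.82). Fgf9 stood at 27.6 and 29.5 CPM, 2.29 and 5.54 CPM in granulosa and 0.332 and 0.189 CPM in interstitial cells and rose over both (3.0 and 6.76). Fgf18 rose over both as well, at 42.1 and 43.1 CPM, 10.1 and 15.4 CPM and 1.99 and 3.21 CPM. Hbegf, a ligand of the EGF receptor, stood at 20.3 and 23.8 CPM, 1.69 and 2.25 CPM and 11.5 and 5.38 CPM. Its receptor gene Egfr was lower than in both groups (3.63 and 2.27, 29.6 and 27.9, and 16.8 and 12.4 CPM). The guidance gene Sema3a rose over both (47.9 and 38, 8.09 and 10.6, and 1.16 and 1.23 CPM). Inha, the inhibin subunit of granulosa cells, stood at 108 and 74.3 CPM in mesothelial, 753 and 611 CPM in granulosa and 13.8 and 11.1 CPM in interstitial cells. Ptn, the neurite growth factor pleiotrophin, was lower than in both (18.2 and 17.6, 75.2 and 122, and 992 and 995 CPM).

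Edn2, the vasoconstrictor peptide endothelin 2, was named for its rise over interstitial cells. It stood at 50.1 and 19.3 CPM, 1.45 and 1.39 CPM in granulosa cells and 0 in both interstitial sums, at least 182-fold lower. The mesothelial libraries differed in its level, and both lay above all other sums. Its receptor gene Ednra was called against interstitial cells (4.36 and 8.51 against 57.4 and 59.7 CPM).

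Of 33 tested growth factor receptor genes, 7 were higher and 5 lower than in granulosa cells, and 6 were higher and 12 lower than in interstitial cells. Met, the receptor of hepatocyte growth factor, stood at 11.6 and 16.4 CPM, 1.39 and 1.39 CPM and 0.664 and 0.567 CPM (3.33 and 4.50). Kdr, the main receptor of VEGF on endothelium, stood at 176 and 104 CPM, 6.28 and 18.5 CPM in granulosa and 2.32 and 2.17 CPM in interstitial cells (3.62, SE 0.43, and 5.95, SE 0.52). Amhr2, the receptor of anti-Müllerian hormone, stood at 494 and 449 CPM in mesothelial, 536 and 529.9 CPM in granulosa and 11.8 and 13.2 CPM in interstitial cells, and was called over interstitial cells only (5.23). Of 6 tested steroid receptors, 1 was higher and 2 lower than in granulosa cells. Against interstitial cells, 0 were higher (1 at an unadjusted p under 0.05 in edgeR and 0 by DESeq2) and 1 lower. Nr3c1, the glucocorticoid receptor, was higher than in granulosa cells (42.1 and 44.8 against 13.2 and 17.8 CPM). The oestrogen receptor Esr2 was lower than in granulosa cells, at 2.18 and 1.13 against 42.8 and 24.1 CPM.

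The basement membrane genes, which encode the sheet on which epithelia rest, were split evenly. Of 33 tested, 7 were higher and 8 lower than in granulosa cells and 13 higher and 13 lower than in interstitial cells. Lama5, a laminin chain of mature epithelia, stood at 42.1 and 39.7 CPM, 1.51 and 9.35 CPM in granulosa and 0.166 and 0.472 CPM in interstitial cells. Egfl6 stood at 88.6 and 125 CPM, 7 and 28.1 CPM and 0 and 1.79 CPM. Both rose over both groups without overlap, but Egfl6 was not called over granulosa cells with DESeq2 (adjusted p = 0.199). Col18a1, which gives rise to endostatin, lay between the groups (59.6 and 82.2, 311 and 315, and 6.31 and 2.83 CPM). Nid1 was lower than in both (29.8 and 36.3, 112 and 141, and 211 and 215 CPM), and Col4a4 stood at 1.45 and 0.567 CPM against 115 and 119.5 CPM in interstitial cells. Of 14 tested integrins and matrix receptors, 2 were higher and 4 lower than in granulosa cells (median -0.64). Against interstitial cells, 4 were higher and 4 lower (median -0.81). Itga3 rose over both groups (39.9 and 39.7, 16.5 and 16.6, and 3.98 and 2.74 CPM), and Itga6 lay between them (155 and 126, 414 and 402, and 9.63 and 6.33 CPM).

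Of 31 tested genes of complement and surface defence, 10 were higher and 5 lower than in granulosa cells, and 14 were higher and 8 lower than in interstitial cells. Lgals1, a galectin, stood at 7009 and 6084 CPM, 348 and 527 CPM in granulosa and 2859 and 2153 CPM in interstitial cells (3.91, SE 0.21, and 1.39, SE 0.19). Procr, the protein C receptor, rose over both (39.2 and 27.8, 6.28 and 3.98, and 3.82 and 2.65 CPM). Serpinb6a, an intracellular protease inhibitor with close paralogs that can share reads, stood at 901 and 1002 CPM, 5283 and 4892 CPM and 257 and 318 CPM. The chemokine genes Ccl2 and Ccl7, named for their rise over granulosa cells, stood at 73.4 and 33.5 CPM against 0.422 and 3.12 CPM and at 29.1 and 16.4 CPM against 0.362 and 0.173 CPM.

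In the list of ketone body and cholesterol genes, 3 of 13 tested were higher and 2 lower than in granulosa cells, and 4 were higher and 1 lower than in interstitial cells. Soat1, which esterifies cholesterol, stood at 487 and 438 CPM in mesothelial, 186 and 187 CPM in granulosa and 87.3 and 91.3 CPM in interstitial cells. Star, which brings cholesterol into mitochondria for steroid synthesis, stood at 61.7 and 42 CPM, 3.56 and 0.693 CPM and 0.664 and 1.32 CPM (4.31, SE 0.46, and 5.56, SE 0.53). Both rose over both groups without overlap, whereas the steroid enzyme gene Hsd3b1 stood at 2.9 and 0.567 CPM against 81.7 and 31.7 CPM in granulosa cells.

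The immediate-early genes respond to stress, tissue dissociation included. Of 20 tested, 1 was higher and 4 lower than in granulosa cells (median -0.17), and 5 were higher and 2 lower than in interstitial cells (median 0.03). Atf3 was higher than in both, at 614 and 483 CPM, 122 and 76 CPM in granulosa and 30.7 and 17.9 CPM in interstitial cells. Fos stood at 1725 and 2066 CPM in mesothelial, 2585 and 1597 CPM in granulosa and 3242 and 3932 CPM in interstitial cells and was called in neither comparison. The part of dissociation in these levels was not tested.

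Some genes were nearly absent from the mesothelial cells. Nell1, a secreted protein of bone formation, was at 0 in both mesothelial sums and stood at 16.6 and 15.1 CPM in granulosa and 47.5 and 61.1 CPM in interstitial cells. Against a floor of 3 UMIs over the group it was at least 17.0-fold and 58.8-fold lower. Abcd2, a peroxisomal transporter, was also at 0, at least 7.73-fold and 5.36-fold lower, and Cldn1 was at least 5.62-fold and 12.4-fold lower. With 1 UMI in all, the stem and vascular cell marker Cd34 had a ratio of 28.5 against granulosa (counting interval 5.06 to 1132) and 529 against interstitial cells (94.9 to 20903). Hsd11b2, which inactivates glucocorticoids, stood at 0.726 and 0 CPM, 8.09 and 6.24 CPM and 77.2 and 67.4 CPM, and the transcription factor Mkx at 0 and 0.567 CPM, 10.4 and 5.72 CPM and 21.6 and 30.5 CPM. Amer2 and Nkain3 completed the 8 genes lowest against both groups, each with 1 UMI. With every cell thinned to 2000 UMIs, Hsd11b2, Mkx, Cd34 and Nkain3 were not called against granulosa cells, and in a test against a 2-fold change itself Cldn1 was not (adjusted p = 0.0785).

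The genes lowest against granulosa cells alone were Fam78a, Nos2, Ctxn3, Pde1b, Trpc6 and Chrdl1, all at 0 in both mesothelial sums. Nos2, the inducible nitric oxide synthase, was at least 15.5-fold lower by that floor, and with DESeq2 it and Chrdl1 were not called (adjusted p = 0.119 and 0.530). Against interstitial cells they were Cntfr, Rtl3, Lgi2, Efcc1, Ltbp2 and Olfml1, also at 0 in both. Cntfr, the receptor of ciliary neurotrophic factor, stood at 38.7 and 46.9 CPM in interstitial cells and was at least 45.9-fold lower in the mesothelial cells.

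Markers of other ovarian cells were counted in the same sums, here per 1000000 UMIs without the scaling factor. Of 17 tested granulosa markers, 0 were higher (2 at an unadjusted p under 0.05 in edgeR and 0 by DESeq2) and 13 lower than in granulosa cells, with a median of -3.09, and all 14 tested interstitial markers were lower than in interstitial cells (median -5.04). The granulosa markers summed to 904 and 838 in the mesothelial against 3430 and 3413 in granulosa cells, and Foxl2, Fst or Wnt6 was found in all but 5 and 5 of the mesothelial cells. Of the mesothelial cells, 28 and 39 held 2 of these genes and 11 and 13 held 3. Such cells met the gene count of the granulosa gate and were kept out of it by their Upk3b. When every mesothelial cell with Foxl2 or Fst was left out, a setting added after the data were seen, 856 genes were called higher and 880 lower than in granulosa cells, and 1453 higher and 1232 lower than in interstitial cells. The interstitial markers summed to 710 and 855, of which Col3a1 held 585 and 688.

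The 14 germ cell markers summed to 77.3 and 114 in the mesothelial cells, 84.1 and 116 in granulosa and 77.2 and 139 in interstitial cells, with 1 of them at 0 in each mesothelial sum and 0 of 11 tested called in either comparison (1 at an unadjusted p under 0.05 in edgeR in each and 0 by DESeq2). The summed level was higher in replicate 2 in all 3 groups, which share the germ cell limit. Of 13 immune markers, 10 and 7 were at 0 in the mesothelial sums, which added up to 6.32 and 7.16. The 8 erythroid markers, whose hemoglobin genes share reads, summed to 21.1 and 84.3 in the mesothelial and to 581 and 1222 in granulosa cells. Of 12 endothelial markers, 7 and 5 were at 0, among them Cdh5 in both sums, while Kdr and Esam were higher than in both groups. Esam, a junctional adhesion protein, stood at 79.2 and 82.2 CPM against 3.44 and 7.79 CPM and 2.16 and 2.17 CPM. Of 10 markers of tubal or rete epithelium, 5 and 5 were at 0, and Epcam gave most of the sum of 254 and 241. The 11 perivascular markers summed to 62.5 and 102, mostly Acta2. The part of these other cells in the results was not tested, and leaving out every cell that Scrublet marked as a doublet, 3 and 0 of them non-cycling mesothelial, ended the calls of Cdh5 and Lgr4 against granulosa cells.

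The non-cycling cells were split from the cycling mesothelial cells by 6 cycle genes, so the contrast between them is a description. The cycling cells were deeper, with a median of 22153 and 20393 UMIs per cell. Against them, 2 genes (0.0160%) were called higher and 212 (1.69%) lower in the non-cycling cells. Called in either direction were 0 of 21 surface coat, 0 of 37 keratin and junction, 0 of 11 WNT ligand and 0 of 6 IGF binding genes. Their median log2 fold changes were 0.12, 0.23, 0.02 and 0.21, so these lists did not set the non-cycling apart from the cycling cells. Of 62 further cell cycle genes, 51 were lower (median log2 fold change -2.28). Against granulosa cells, 16 of the 62 (25.8%) were higher and 0 lower (median 0.77), beside 7.55% and 7.48% of all genes. At an unadjusted p under 0.05 in edgeR, 2 were lower there, and 0 were called lower by DESeq2. Against interstitial cells, 2 (3.23%) were higher and 4 (6.45%) lower (median -0.26), beside 13.7% and 11.0% of all genes. Whether cycle transcripts were left in the cells called non-cycling was not tested. Mcm5, a subunit of the replication helicase, stood at 29.1 and 31.8 CPM in non-cycling mesothelial, 70.9 and 65.3 CPM in cycling mesothelial, 11.1 and 7.79 CPM in granulosa and 74.2 and 58.6 CPM in interstitial cells. Outside these lists, Cdca5, needed for sister chromatid cohesion, was at 0 and 0 CPM against 26.1 and 20.4 CPM, Aspm, a spindle protein, at 0.726 and 0 CPM against 29.2 and 25.7 CPM, and Mybl2, a transcription factor of the cycle, at 0 and 1.7 CPM against 37.3 and 28.6 CPM. The lower genes of largest change also held Ncapg, Knl1 and Prr11. With every cell thinned to 2000 UMIs, Cdca5, Aspm, Mybl2, Ncapg and Knl1 were not called, and at 4000 UMIs Aspm and Prr11 were not. The higher genes were 1700096K18Rik (16.7 and 17.6 against 5.6 and 6.12 CPM) and Tcp11l2 (7.99 and 14.7 against 3.11 and 2.04 CPM). The first was not called with DESeq2 (adjusted p = 0.102) and the second not without the cells that Scrublet marked (edgeR adjusted p = 0.0624), and neither was called with stricter quality limits or with cells thinned to 2000 or 4000 UMIs. Lgr5 stood at 199.7 and 149 CPM in the cycling cells. The CDK inhibitor gene Cdkn1c, which restrains the cycle, stood at 482 and 341 CPM in the non-cycling and at 349 and 240 CPM in the cycling cells and was not called between them (log2 fold change 0.48), whereas it was higher than in granulosa cells (45 and 40.2 CPM).

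Variation among the mesothelial cells was ranked by the ratio of variance to mean, a measure that favours abundant genes. Every cell was thinned to 4000 UMIs, which left 99 and 130 cells, and the ratio of variance to mean, which is near 1 for counting noise alone, was taken for 2505 genes with a mean of at least 0.2 UMI. Its median was 1.06 in both libraries. The largest values were those of Actb, cytoplasmic actin, at 16.2 and 18.5, with a median of 9 and 10.5 UMIs per cell, a lowest of 0 and 1 and a highest of 70 and 100. Malat1 (10.1 and 16.3), a nuclear noncoding RNA, Lgals1 (8.11 and 9.95) and Mt1 (7.18 and 6.74), a metallothionein, followed. Lgals1 ranged from 2 to 80 UMIs around a median of 26 in replicate 1 and from 1 to 73 around 20 in replicate 2. The label gene Lgr5 had a ratio of 1.17 and 1.10. Its mean was 0.889 and 0.523 UMI per cell against 13.9 and 18.1 for Actb, so these ratios do not show which gene varied more.

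Pairs of variable genes moved together in cells of either library, given here as descriptions for pairs chosen after their values were seen. Spearman's rho of the stress gene Atf3 with Nfkbia, an inhibitor of NF-κB, was 0.58 over 99 cells and 0.54 over 130 cells, and that of the chemokine Cxcl1 with Nfkbia was 0.44 and 0.48. Serpinb6a rose with Gatm, a creatine synthesis gene of the granulosa list (0.44 and 0.50), and opposed Lgals1 (-0.43 and -0.45) and Krt19 (-0.19 and -0.24). The granulosa gate gene Foxl2 went weakly with Gatm (0.34 and 0.17) and with Serpinb6a (0.27 and 0.19). At this depth 93.9% and 93.1% of the cells held no Foxl2. Lgals1 went with Krt19 (0.28 and 0.46) and Igfbp5 (0.33 and 0.39), whereas Upk3b and Lgr5 showed no common direction (0.16 and -0.08). The cells of a library share its preparation, and doublets or free RNA in these relations were not tested.

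**Figure D5:**
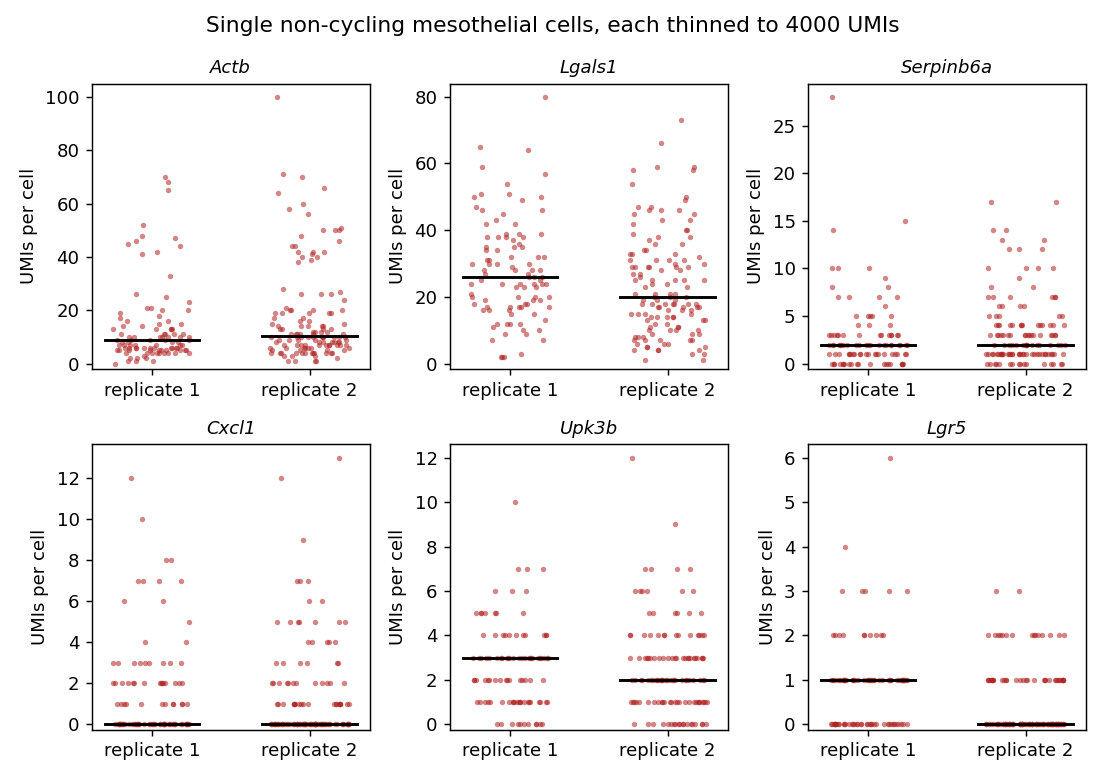
UMIs per cell of 6 genes in single non-cycling mesothelial cells thinned to 4000 UMIs, 99 in replicate 1 and 130 in replicate 2, with a bar at the median. Actb reaches 70 and 100 UMIs around medians of 9 and 10.5, and Lgr5 reaches 6 and 3 UMIs.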

How the data were processed

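Whole CD1 ovaries of postnatal day 2 were dissociated and sequenced as 2 Chromium 3′ libraries. The authors deposited raw UMI counts of 31057 genes in 4094 and 4847 barcodes, made per the labels with Cell Ranger 3.0.2 on GRCm38 and without normalization, with 54471790 and 59074480 UMIs in all. The labels name kit version 2 and the methods version 3, which changes the barcode and UMI design and may change sensitivity. The libraries shared 21 barcodes, 0 among the mesothelial cells. A kept cell had 500 or more genes and no more than 10% mitochondrial UMIs. Doublets were scored with Scrublet in scanpy 1.11.5 (expected share 0.05, threshold 0.225 from replicate 1 for both), which marked 96 and 93 cells. They were left in and removed as an alternative.

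UMIs were summed per library in 4 groups, and the 8 sums (1423133 and 1814580 UMIs for non-cycling mesothelial cells) entered 1 quasi-likelihood fit in edgeR 4.0.16 under R 4.3.3, after filterByExpr and TMM scaling. The 22 gate genes were removed before Benjamini-Hochberg adjustment. CPM are counts per 1000000 of the TMM-scaled size. With 2 pooled libraries, p-values measure the spread between these alone, and intervals cover counting error only. Sums of a library come from the same animals, and their deviations correlated by 0.176 to 0.241 over 12547 genes, so blocking on the library was an alternative. The study describes its single-cell analysis in a supplementary text, which was not used here.

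The members and gene lists were chosen with earlier results of these data known. Named genes were, in this order, the 24 highest over both groups, the 8 lowest, 6 more in each direction and comparison, the 6 largest in each direction against cycling cells, and up to 4 called members of a list and direction. Those named by size had to be over 2-fold in each library, with at least 20 UMIs per library in the group where they were higher. List members and Tcp11l2 were named without these limits. Alternatives changed scaling, test (DESeq2 1.42.0, or against a 2-fold change), filter, gates, depth, doublets and libraries. Tests were checked on simulated data. Gene positions on GRCm38 were looked up by identifier (292 of 292 found).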

Additional observations from a re-analysis of the deposited data

How the results depend on the processing

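Against granulosa cells, 946 genes were higher and 937 lower. A test against a 2-fold change itself gave 473 and 412, thinning each cell to 2000 UMIs 427 and 452, and thinning to 4000 UMIs 612 lower. Leaving out cells with Foxl2, Fst or Wnt6, which kept 5 and 5 mesothelial cells, gave 31 and 57. Against interstitial cells, the same settings gave 1105 and 821 (2-fold test), 783 and 708 (2000 UMIs), 1120 higher (4000 UMIs) and 139 and 221 (5 and 5 cells), in place of 1720 and 1381. Against cycling cells, 2 higher and 212 lower became 0 and 102 by the 2-fold test, 0 and 35 at 2000 UMIs and 122 lower at 4000 UMIs. The higher count was 1 with library size scaling, DESeq2, Upk3b from 1 UMI, 4 of 7 markers or without Lgals7 in the gate, 4 without cells holding Foxl2 or Fst, and 12 without a low-count filter. Fewer UMIs or cells are part of the construction of the thinned and Foxl2, Fst or Wnt6 settings, and for the others the cause was not tested. With 1 library left out no residual degrees of freedom remained for a test, and genes over 2-fold numbered 1190 to 1474 higher and 1428 to 1669 lower against granulosa cells, 1966 to 2107 and 1741 to 1892 against interstitial cells, and 499 to 774 and 841 to 998 against cycling cells.

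The mesothelial share was 2.14% and 2.24% with 4 of 7 markers. Every non-cycling mesothelial cell held Lgals7, so the gate without Lgals7 chose the same cells and is not a separate check. At 2000 UMIs the cycling share was 13.4% and 11.7%, and the ratio of variance to mean was 8.09 and 10.5 for Actb and 4 and 3.46 for Crip1. With the library as a replicate block, 1041 genes were higher and 1044 lower than in granulosa cells, 1797 and 1448 against interstitial cells and 3 and 237 against cycling cells, and no call of a named gene was lost. Of 96 calls of genes named for the size of their change, DESeq2 lost 4, the stricter quality limits 2, the 2-fold test 3, leaving out cells with Foxl2 or Fst 3, 2000 UMIs 11 of 70, 4000 UMIs 5 of 85 and leaving out cells with Foxl2, Fst or Wnt6 45 of 68. Library size scaling, Upk3b from 1 UMI, 4 of 7 markers, Scrublet and the gate without Lgals7 each lost 1, Tcp11l2. Of 139 calls of list members named in the text, the same first 7 settings lost 4, 4, 18, 5, 10 of 129, 3 of 134 and 85 of 131, among them Wnt5a against both groups without cells holding Foxl2 or Fst. Scrublet lost 2, library size scaling 2, Upk3b from 1 UMI 1 and granulosa cells with all 3 genes 1 of 63. Without replicate 1 and without replicate 2, fold changes came from log2 CPM with a prior count of 2, unlike those of the full fit. They differed from the full fit by more than the spread between libraries for 73 and 59 of the 96. For the 139 this held for 44 and 39, with no change of direction in either set. The part of the unlike estimates in these differences was not tested, so they do not measure how stable the calls are. Direction changed for 2 of the 139 calls, Cdh2 (-7.29) and Rnf43 (-2.84) over interstitial cells without cells holding Foxl2, Fst or Wnt6. DESeq2 moved list counts by over 1.5 times for retinoid genes (above), keratins and junctions lower than in granulosa cells (1 in place of 2), immediate-early genes higher than in granulosa cells (2 in place of 1) and further cycle genes higher than in interstitial cells (1 in place of 2). Perivascular markers higher than in granulosa or interstitial cells numbered 0 in place of 1 in each comparison. Against interstitial cells, 1 endothelial marker in place of 2 and 1 immune marker in place of 0 were lower. Scaling by library size alone shifted the median log2 fold change of all genes by -0.10 against granulosa cells.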

Other observations

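The genes of long-lived ovarian proteins, which the study assigned to cell types with these libraries, were counted in the same comparisons. Of 325 tested, 15 (4.62%) were higher and 22 (6.77%) lower than in granulosa cells, against 7.55% and 7.48% of all genes, with a median log2 fold change of 0.04. Against interstitial cells, 30 (9.23%) were higher and 24 (7.38%) lower, against 13.7% and 11.0%, with a median of 0.07. Among the higher genes were Aldh1a1 over interstitial cells and S100a6, a calcium-binding protein, over granulosa cells (152 and 120.2 against 11.5 and 6.06 CPM). The list was taken from a shortened copy of the source data of the study, which sorts it by the cell types of these libraries and is not independent of them.

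Further genes named for their rise over granulosa cells were Lin7a, a polarity protein of cell junctions, at 20.3 and 15.3 CPM against 0 and 0.52 CPM, Lfng, which modifies Notch receptors, at 15.3 and 14.2 against 0.121 and 0.52 CPM, the netrin receptor Unc5b at 28.3 and 23.2 against 0.302 and 0.866 CPM, and the oxygen-sensing enzyme Egln3 at 51.6 and 21 against 0.724 and 0.866 CPM. Over interstitial cells they were Rab11fip1, which acts in vesicle recycling, at 25.4 and 17.6 CPM against 0 in both sums (at least 116-fold), and Prkg2, a cGMP-dependent kinase, at 16 and 21.5 CPM against 0 (at least 106-fold).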
